A study of Arabidopsis thaliana with 4 samples.

Results

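The comparison described here sets library 4A against library 1A of cultured Arabidopsis thaliana root callus, gene by gene. Its members are all 7531 genes that the authors' deposited table lists for this pair, of 11118 genes listed in any of the 5 pairs of libraries read here, and no measured value was used to choose among them. Each gene carries the authors' log2 fold change, 4A over 1A, so a positive value means higher in 4A. The study held 4 groups of wild-type Col-0 calli with 1 sample each: MS+NaCl+2,4-D, with salt at 100 mM beside 2,4-D at 0.5 mg/L; MS+NaCl, with the salt alone; MS+2,4-D, with the 2,4-D alone; and MS, untreated. MS is Murashige and Skoog medium, and 2,4-D (2,4-dichlorophenoxyacetic acid) is a synthetic auxin. All calli had been raised on 2,4-D from root pieces of 30-day-old plants and sub-cultured at 3-week intervals, and treatment lasted 4 weeks. No label ties the codes 1A to 4A to a treatment, so the libraries keep their codes and no difference below is assigned to salt or to auxin. RNA was pooled within a group before sequencing, so there is 1 library on each side, no replicate spread, and every call compares libraries and not conditions.

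Callus is unorganised tissue that keeps dividing in culture. Cells that divide pass through DNA replication and then mitosis, and plants switch on the genes of each phase together, through E2F factors for replication and through MYB3R factors for mitosis. Callus raised on auxin from roots is known to resemble the tip of a lateral root, and greening callus also builds chloroplasts, whose light-harvesting and carbon-fixing proteins are mostly encoded in the nucleus.

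Of the 7531 genes, the authors' deposited table listed 3741 higher and 3790 lower in 4A, with a median log2 fold change of 1.78 among the higher and -2.39 among the lower genes. The table holds only called genes, at least 2-fold apart and with an FDR under 0.001, so a gene that is missing was not called, which says neither that it was silent nor that it was unchanged. As a background for the counts below, 12.9% of the 27550 protein-coding genes of the TAIR10.1 reference were listed higher in 4A and 13.1% were listed lower, since the sources used here do not give how many genes the authors tested. The balance of directions changed with size in the authors' deposited table. Between 2-fold and 4-fold, 2145 genes were higher and 1565 lower, whereas from 8-fold to 16-fold 294 were higher and 488 lower. Above 64-fold, 329 genes were higher and 492 lower, but 629 of those 821 genes, or 76.6%, had a fold that was exactly a whole number, against 0.323% between 2-fold and 4-fold. Whole-number folds numbered 923 in all, 431 higher and 492 lower. They crowd at the largest sizes, their cause was not tested, and genes with such a fold are named below without one.

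**Figure D1:**
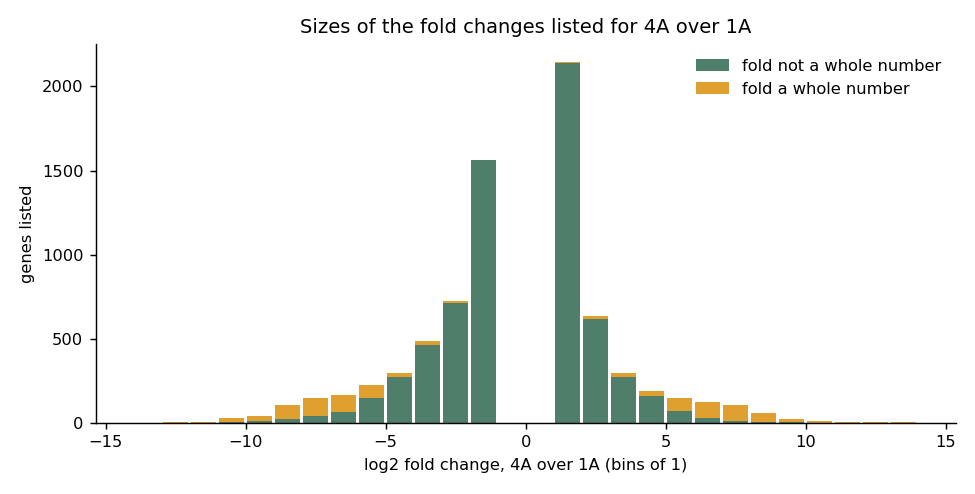
Number of genes listed for 4A over 1A (vertical axis) by log2 fold change in bins of 1 (horizontal axis), split into folds that are not whole numbers and folds that are. The bins next to the empty middle hold the most genes, 2145 higher and 1565 lower between 2-fold and 4-fold, and whole-number folds make up 76.6% of the genes above 64-fold.

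The far ends of the comparison mixed auxin-response, root and defence genes. Among genes with a symbol and a fold that is not whole, the highest in the authors' deposited table was GH3.2, which joins auxin to amino acids, at a log2 fold change of 10.37, followed by MAKR4 at 9.88, a regulator of root branching, and RTFL10 at 9.85, which encodes a small peptide. GH3.3, a close relative of GH3.2, stood at 9.81 per the authors' deposited table, and the dehydration-responsive gene RD22 at 8.65. The lowest genes in the authors' deposited table were MBP2, a myrosinase-binding protein, at -11.51, the ER body genes BGLU18 at -10.33 and TSA1 at -10.12, and the thionin THI2.1, an antimicrobial peptide gene, at -10.10. NAMT1, which methylates nicotinic acid, followed at -9.98 per the authors' deposited table, and the Rubisco small subunit RBCS3B at -9.67.

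Genes of DNA replication and genes of mitosis were listed in opposite directions. Of 26 DNA replication genes, the authors' deposited table listed 18 higher in 4A (69.2%, against 12.9% of all protein-coding genes) and 0 lower, with a median log2 fold change of 1.66. RNR1, the large subunit of the enzyme that makes deoxyribonucleotides, was 4.92-fold higher in the authors' deposited table, at a log2 fold change of 2.30, and its partner subunit RNR2A stood at 1.76. All 6 listed subunits of the MCM helicase, which unwinds DNA at the fork, were higher in 4A in the authors' deposited table: MCM2 at 2.00, MCM4 at 1.84, MCM5 at 1.72, MCM7 at 1.57, MCM6 at 1.17 and MCM3 at 1.05. The factors that load that helicase lay in the same range of the authors' deposited table, with CDT1A at 1.89, CDC6 at 1.60, ORC2 at 1.80 and ORC1B at 1.78. The sliding clamp PCNA1 stood at 1.41 per the authors' deposited table and POLA2, a subunit of the priming polymerase, at 1.85. Histones, which package newly made DNA, did not follow these genes: of 24 the authors' deposited table listed 1 higher, HTR11 at 1.65, and 2 lower, HTA12 at -1.64 and HTA11 at -1.54, and 21 were not listed.

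Genes of mitosis and cytokinesis lay on the other side. Of 23 such genes the authors' deposited table listed 0 higher and 12 lower in 4A (52.2%, against 13.1% of all protein-coding genes), with a median of -1.41. The mitotic kinase CDKB1;2 was at -2.28 per the authors' deposited table, or 4.87-fold lower in 4A, and its relatives CDKB2;2 and CDKB2;1 were at -1.68 and -1.07. The B-type cyclin CYCB1;4, a partner of such kinases, stood at -2.10 per the authors' deposited table, and the spindle checkpoint gene MAD2 at -1.85. KNOLLE, the syntaxin that fuses vesicles into the new cell wall, was at -1.61 per the authors' deposited table, and MAP65-3, which bundles the microtubules at that wall, at -1.44. The Aurora kinases AUR1 and AUR2 were at -1.38 and -1.16 per the authors' deposited table, and MYB3R4, an activator of mitotic genes, at -1.07. Among the 73 cyclins, cyclin-dependent kinases and their regulators, which share the kinases and B-type cyclins just named, the authors' deposited table listed 12 higher and 16 lower. Among folds that are not whole, the highest were the cyclin CYCA2;4 at 2.98 and ICK6 at 2.30 per the authors' deposited table. Those higher also included the replication factor gene E2FA at 1.82 and the checkpoint kinase WEE1 at 1.90 per the authors' deposited table. Those lower included the G1 cyclin CYCD3;1 at -1.55.

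The same cell cycle genes were looked up in pairs that share a library with this one. In 2A over 1A, which shares library 1A, the authors' deposited table listed 10 of the 26 replication genes higher (background 11.3%) and 0 lower (9.79%), and 0 of the 23 mitosis genes in either direction. In 3A over 1A it listed 0 of either list, where 8.54% of protein-coding genes were higher and 4.19% lower. CDT1A, for instance, stood at 1.88 in 2A over 1A and at 1.90 in 4A over 3A in the authors' deposited table and was not listed in 4A over 2A. CDKB1;2 was at -2.10 in 4A over 3A in the authors' deposited table and not listed in 2A over 1A.

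**Figure D2:**
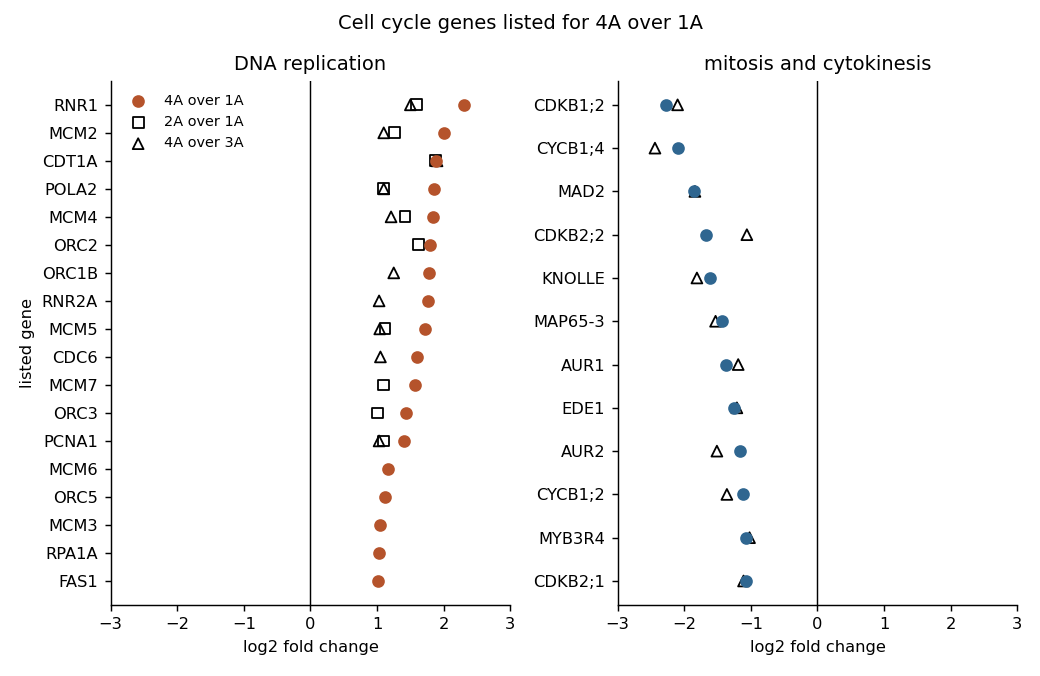
Log2 fold changes (horizontal axis) of the 18 DNA replication genes and the 12 mitosis and cytokinesis genes listed for 4A over 1A (vertical axis, 1 gene a line), as filled circles. Open squares and triangles give the same gene in 2A over 1A and in 4A over 3A where it was listed. All filled circles lie to the right of 0 for replication, from 1.01 to 2.30, and to the left of 0 for mitosis, from -2.28 to -1.07.

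The 2 lists also differed in the 250 bases before the annotated gene start. The lists were made of known genes of each phase. Their motif shares are read from the genome and would be the same whatever the libraries held. In the RefSeq TAIR10.1 assembly, 42.3% of the 26 replication promoters held an E2F site (TTTCCCGC, TTTCGCGC, TTTGCCGC or TTTGGCGC, on either strand), against 1.41% of all 27431 protein-coding promoters and 0 of the 23 mitosis promoters. The core of the mitosis-specific activator element (AACGG on either strand, called the MSA core here) was in 56.5% of the mitosis promoters, 26.9% of the replication promoters and 20.6% of all promoters. Neither motif contains the other. Of the 11 replication genes with an E2F site, the authors' deposited table listed 8 higher in 4A, and of the 13 mitosis genes with the MSA core it listed 8 lower, near the lists' own counts of 18 of 26 and 12 of 23. Over all protein-coding genes, the E2F site was in 2.39% of promoters of genes listed higher, 1.14% of those listed lower and 1.29% of those not listed, and the MSA core in 21.1%, 20.6% and 20.5% of them. The promoters below show, for each list, the members with the largest fold change that hold the motif. They are written 5′ to 3′ along the strand of the gene up to the base before its start, with the match in capitals, and a match describes these letters only. MCM2 and MCM4 carry the E2F site close to the start, beginning 14 and 35 bases before it, and MAD2 and CDKB2;2 carry the MSA core on the opposite strand as CCGTT.
MCM2, chr1:16969964-16970213, plus strand: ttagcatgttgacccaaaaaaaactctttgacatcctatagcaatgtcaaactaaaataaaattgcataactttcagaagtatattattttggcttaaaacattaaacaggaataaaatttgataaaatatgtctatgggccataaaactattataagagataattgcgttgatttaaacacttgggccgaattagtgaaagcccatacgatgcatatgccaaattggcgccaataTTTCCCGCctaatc
MCM4, chr2:7130730-7130979, minus strand: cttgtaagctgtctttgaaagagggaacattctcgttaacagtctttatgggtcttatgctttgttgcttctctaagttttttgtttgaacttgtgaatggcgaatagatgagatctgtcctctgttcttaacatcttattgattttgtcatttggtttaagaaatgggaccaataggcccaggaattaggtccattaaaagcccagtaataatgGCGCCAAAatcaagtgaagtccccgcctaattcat
MAD2, chr3:9502806-9503055, plus strand: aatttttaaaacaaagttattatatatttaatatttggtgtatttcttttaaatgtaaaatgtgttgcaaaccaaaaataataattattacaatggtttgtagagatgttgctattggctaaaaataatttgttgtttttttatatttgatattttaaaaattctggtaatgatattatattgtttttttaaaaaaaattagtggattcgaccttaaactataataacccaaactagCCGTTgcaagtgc
CDKB2;2, chr1:7294747-7294996, minus strand: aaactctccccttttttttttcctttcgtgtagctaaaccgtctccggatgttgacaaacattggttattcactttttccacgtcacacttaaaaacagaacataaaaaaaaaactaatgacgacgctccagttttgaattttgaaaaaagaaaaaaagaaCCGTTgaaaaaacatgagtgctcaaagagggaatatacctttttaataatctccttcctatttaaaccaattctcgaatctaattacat

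A pair of large families that act on RNA or DNA were listed higher more often than lower, though most of their members were not listed. Pentatricopeptide repeat proteins bind organelle transcripts and direct their editing, splicing and stability. Of 279 such genes the authors' deposited table listed 110 higher (39.4%) and 5 lower (1.79%) in 4A, with a median of 1.60. The highest with a fold that is not whole were AT5G15300 at 3.72, AT5G14820 at 3.61 and AT1G11710 at 3.33 per the authors' deposited table, and REME1, which edits mitochondrial transcripts, stood at 2.87. Of 128 helicase genes, which unwind RNA or DNA, the authors' deposited table listed 52 higher (40.6%) and 7 lower (5.47%). The largest folds that are not whole were lower: AT1G24575 at -7.26, AT5G28610 at -4.15 and MEE29 at -3.05 per the authors' deposited table. The highest was FANCM, a DNA repair helicase, at 2.41. Higher minus lower helicase genes fell from 45 to 3 at a log2 fold change over 2 in size. Both families were picked as groups after their values had been seen. Of the ribosomal proteins, the authors' deposited table listed 37 of 344 higher (10.8%) and 29 lower (8.43%), shares below the background in both directions. The lower ones included plastid ribosome genes such as PSRP3/1 at -3.03 per the authors' deposited table. In 2A over 1A, 73 of the pentatricopeptide repeat genes were higher and 9 lower in the authors' deposited table.

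Calls also followed gene length. Over all listed genes with an annotated length, non-coding ones included, the median was 2526 bases for those higher and 1917 for those lower. For all protein-coding genes alone it was 2075. With the protein-coding genes put into 5 classes of equal size by length, 20.3% of the longest class were listed higher and 9.76% lower in the authors' deposited table, and of the shortest class 5.94% were higher and 9.77% lower. The median length was 3118 bases for the replication list, 2544 for the mitosis list, 4416 for the helicases and 2254 for the pentatricopeptide repeat genes. How far length shares in these counts was not tested.

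The pentatricopeptide repeat promoters held the site II motif (TGGGCC or TGGGCT, either strand) in 29.4% of cases, the replication promoters in 57.7%, and all promoters in 19.2%. It was in 24.5% of promoters of genes listed higher, 13.8% of those listed lower and 19.2% of those not listed. AT1G11710, shown because it had the largest fold change among such genes with the motif, carries it 176 bases before its start.
AT1G11710, chr1:3948464-3948713, plus strand: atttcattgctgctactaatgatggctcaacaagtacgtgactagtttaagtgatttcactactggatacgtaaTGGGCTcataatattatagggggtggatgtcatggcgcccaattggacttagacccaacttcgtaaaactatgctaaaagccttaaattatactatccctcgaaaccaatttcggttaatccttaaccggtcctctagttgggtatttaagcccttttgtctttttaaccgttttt

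**Figure D3:**
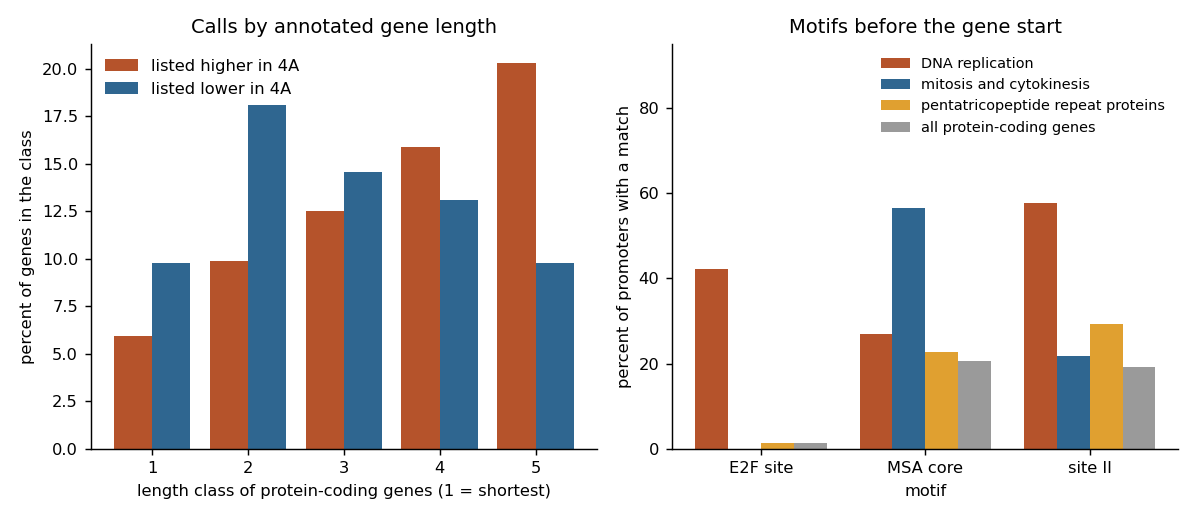
Left, percent of protein-coding genes listed higher or lower in 4A (vertical axis) in 5 classes of equal size by annotated length (horizontal axis, 1 is the shortest): the share listed higher is 5.94% in the shortest and 20.3% in the longest class. Right, percent of promoters with a motif match for 3 gene lists and for all protein-coding genes: the E2F site is in 42.3% of replication promoters and the MSA core in 56.5% of mitosis promoters.

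Most heat shock proteins, chaperones that hold or refold damaged proteins, and the factors that control them were listed higher in 4A. Of 49 genes the authors' deposited table listed 31 higher (63.3%) and 2 lower, with a median of 2.03 and no whole-number fold. The small heat shock protein HSP17.6A was 10.9-fold higher in the authors' deposited table (log2 fold change 3.45), HSP101, which dissolves aggregates, was at 3.09, the mitochondrial disaggregase CLPB4 at 3.11 and HSP70T-2 at 3.08. Chaperones of several compartments were among them in the authors' deposited table, with HSP23.6-MITO of mitochondria at 2.64, HSP21 of plastids at 2.03 and HSP90.1 of the cytosol at 3.04. The heat shock factors HSFA7B, HSFA7A and HSFA2 stood at 2.57, 1.99 and 1.85 per the authors' deposited table, while HSFB3 stood at -3.05. HSP101 was at 1.21 in 2A over 1A and at 2.21 in 3A over 1A in the authors' deposited table, which share library 1A, and at 1.88 in 4A over 2A. A heat shock element was taken as 3 alternating GAA and TTC units spaced by 2 bases. It was in 4 of the 49 promoters (8.16%) and in 0.383% of all promoters. All 4 belonged to genes listed higher, in a list with 31 of its 49 genes listed higher whatever their motif. The element was in 0.816% of promoters of genes listed higher, 0.389% of those listed lower and 0.306% of those not listed. HSFA7B, shown as the member with the motif and the largest fold change, carries it 157 bases before its start.
HSFA7B, chr3:23398986-23399235, plus strand: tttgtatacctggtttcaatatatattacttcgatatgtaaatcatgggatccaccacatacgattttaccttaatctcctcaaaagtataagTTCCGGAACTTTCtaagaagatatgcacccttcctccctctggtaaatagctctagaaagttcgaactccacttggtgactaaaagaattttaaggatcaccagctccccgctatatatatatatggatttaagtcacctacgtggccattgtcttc

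Markers of root cells were higher in 4A, and markers of leaf and phloem cells were lower. All 6 root markers were listed higher in the authors' deposited table, among them WOX5 of the stem cell niche at 6.54, the auxin exporter PIN2 at 6.04, the tissue-patterning factor SCR at 3.35 and SHR, which moves to activate SCR, at 2.02. PLT1 and PLT2 were listed higher with whole-number folds. Of 4 root hair markers, 3 were listed higher in the authors' deposited table: the master regulator RHD6 at 8.56, COBL9 at 5.33 and the expansin EXPA7 at 5.11. All 6 mesophyll markers were lower in the authors' deposited table, from LHCB2.2 at -9.65 to RCA, the activator of Rubisco, at -3.04. These 6 are antenna or Calvin cycle genes and are counted again with the photosynthesis genes below. All 5 phloem markers were lower as well in the authors' deposited table, with the sieve element proteins SEOR2 at -7.81 and SEOR1 at -5.59, PP2-A1 at -5.66, the sucrose carrier SUC2 at -4.83 and APL, which specifies phloem, at -4.70. The phloem markers are not listed in 3A over 1A, and in 2A over 1A they ranged from SEOR1 at -2.34 to SUC2 at -3.72 per the authors' deposited table. Of the other marker sets, 0 of 6 seed, 0 of 3 trichome and 0 of 3 pollen markers were listed in either direction, 1 of 6 endodermis markers was higher, 1 of 4 guard cell markers lower, and xylem markers were mixed, with 2 higher and 1 lower of 5. In pooled tissue, fewer cells of a type and less RNA per cell cannot be told apart. The labels call the tissue root callus, and whether each library expressed these markers at all cannot be read from fold changes.

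**Figure D4:**
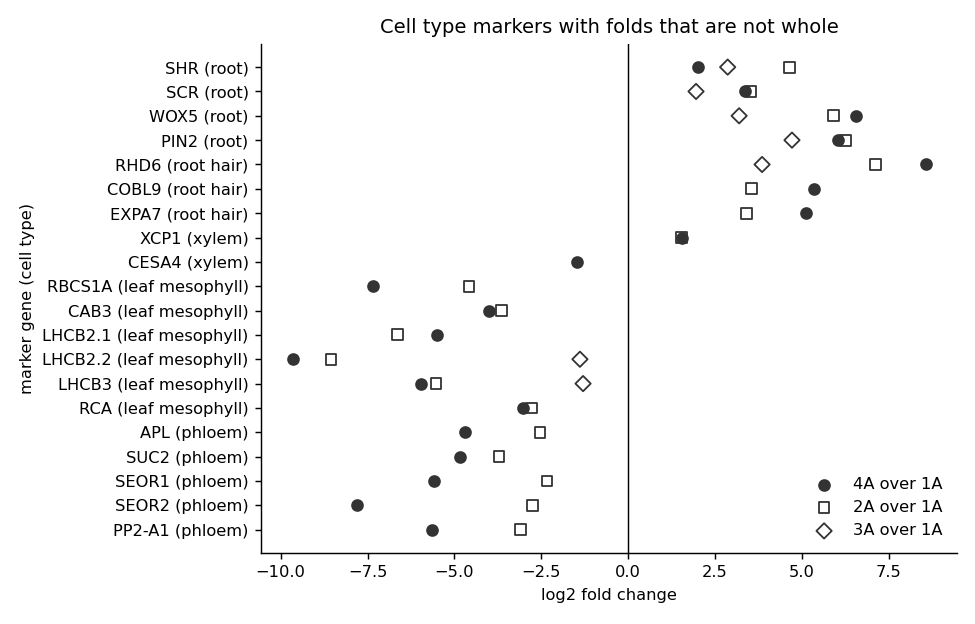
Log2 fold changes (horizontal axis) of root, root hair, xylem, leaf mesophyll and phloem markers with folds that are not whole (vertical axis), in 4A over 1A (filled circles), 2A over 1A (squares) and 3A over 1A (diamonds), which share library 1A. Root and root hair markers lie right of 0, up to 8.56 for RHD6, and mesophyll and phloem markers lie left of 0, down to -9.65 for LHCB2.2.

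Nuclear genes of the photosynthetic apparatus and of carbon fixation were nearly all lower. The authors' deposited table listed lower 18 of 20 antenna genes, all 13 genes of photosystem I, all 12 of photosystem II, 11 of 12 electron carriers and ATP synthase subunits of the chloroplast and 16 of 18 of the Calvin cycle, and listed 0 of them higher. Of 22 chlorophyll synthesis genes it listed 11 lower (50%), such as CHLH of the magnesium chelatase at -4.35, and 0 higher. Photorespiration, which salvages the by-product of Rubisco's reaction with oxygen, had 9 of 11 genes lower and 1 higher. Those lower include GDCH of the glycine decarboxylase, at -8.74 per the authors' deposited table, which was added after the list was first written. The pair 2A over 1A, which shares library 1A, had similar numbers lower (background 9.79%). They were 17 antenna, 13 photosystem I, 12 photosystem II, 12 electron carrier and ATP synthase and 16 Calvin cycle genes in the authors' deposited table. In 3A over 1A the same counts were 8, 0, 1, 1 and 3 (background 4.19%). None of the 129 plastid genes and none of the 284 mitochondrial genes of the reference was listed, and the libraries were made from poly-A RNA. LHCB6, an antenna gene at -4.61 per the authors' deposited table, is shown because it had the largest fold change among antenna genes with a G-box (CACGTG), the site bound by light-signalling factors; 25% of antenna promoters and 6.49% of all promoters held one, with 6.97% among genes listed higher, 7.45% among those listed lower and 6.23% among those not listed.
LHCB6, chr1:5447881-5448130, minus strand: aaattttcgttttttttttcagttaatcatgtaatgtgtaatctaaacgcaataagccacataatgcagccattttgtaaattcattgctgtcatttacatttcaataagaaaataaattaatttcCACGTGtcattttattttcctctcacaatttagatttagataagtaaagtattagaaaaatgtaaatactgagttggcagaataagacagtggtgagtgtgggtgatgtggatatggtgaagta

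Several gene families of the cell wall and the water channels were listed lower more often than higher, though under 40% of the members of each were listed lower. Arabinogalactan and fasciclin proteins, sugar-coated proteins of the wall and membrane, had 19 of 50 members lower (38%) and 0 higher in the authors' deposited table, such as AGP18 at -5.24 and AGP21 at -3.71. Enzymes that cut and rejoin xyloglucan (XTH) had 12 of 33 lower and 3 higher, with XTH31 at -8.23 and XTH7 at -6.42 per the authors' deposited table. Class III peroxidases, which cross-link wall polymers, had 26 of 70 lower and 8 higher in the authors' deposited table. Aquaporins, the water channels of membranes, had 12 of 34 lower and 1 higher in the authors' deposited table, with TIP1;2 of the vacuole at -5.11, PIP1;5 of the plasma membrane at -3.57 and TIP4;1 at 3.32. Extensins and proline-rich proteins strengthen walls, and their list also took in LRX and PERK genes by name. It was near the background, with 4 of 29 higher and 5 lower in the authors' deposited table. The expansins, which loosen walls, were listed in both directions, 5 of 32 higher and 3 lower, with EXPA7 at 5.11 and EXPB3 at -7.80 per the authors' deposited table. Surface lipids ran the other way: of 49 genes for very long chain fatty acids and cuticle, 16 were higher (32.7%) and 1 lower in the authors' deposited table, with the wax exporter ABCG12 at 6.75, LACS1 at 4.71 and CER3 at 4.15, and GPAT1 at -4.83.

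**Figure D5:**
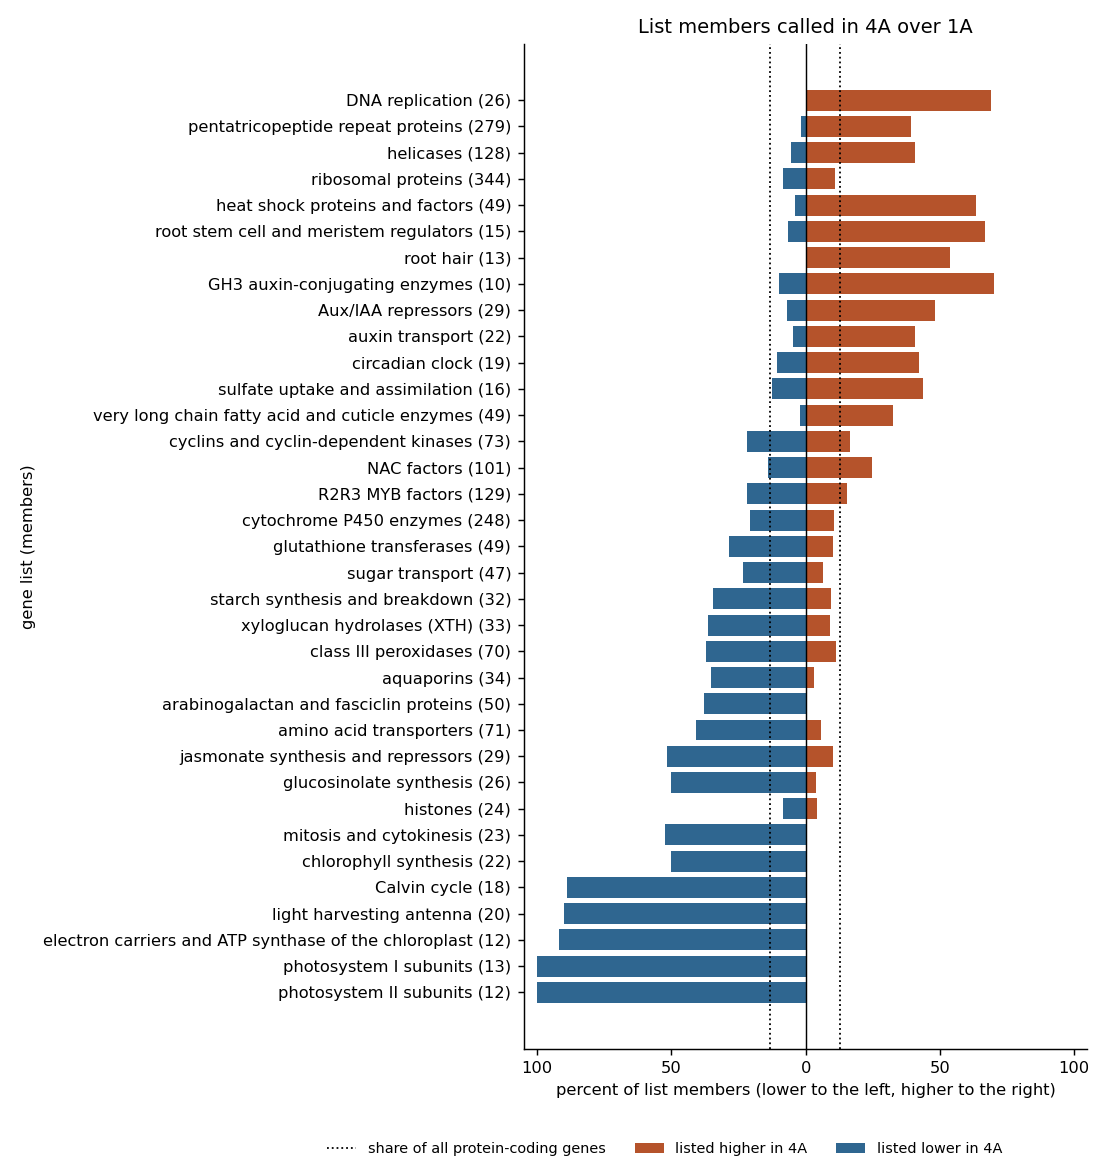
Percent of the members of 35 of the 73 gene lists (vertical axis, members in brackets) listed higher (bars to the right) or lower (bars to the left) in 4A over 1A, with the share of all protein-coding genes in each direction as dotted lines. Replication, GH3, root meristem and heat shock lists reach furthest to the right, and photosystem I and II lists furthest to the left, at 100%.

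Amino acid transporters, sugar transporters and starch genes were listed lower more often than higher, and nitrate and sulfate genes higher more often than lower. Amino acid transporters had 29 of 71 lower and 4 higher in the authors' deposited table, with AAP7 at -8.59 and, on the other side, UMAMIT34 at 6.62. Sugar transporters had 11 of 47 lower and 3 higher, with the sucrose exporter SWEET12 at -5.35 and SWEET2, which stores sugar in the vacuole, at 4.69 per the authors' deposited table. Starch genes had 11 of 32 lower and 3 higher in the authors' deposited table, with GPT2, which brings glucose phosphate into plastids, at -8.72 and the starch synthase GBSS1 at -3.29. Of 16 sulfate genes, 7 were higher (43.8%) and 2 lower (12.5%) in the authors' deposited table. The reductases APR3, APR2 and APR1 were at 2.03, 1.96 and 1.84 and the sulfur-deficiency gene SDI1 at 2.72 per the authors' deposited table, and the genes LSU2, LSU3 and LSU1, which respond to low sulfur, were at 1.57, 1.28 and 1.26. The 2 lower genes were the sulfate carriers SULTR2;1 and SULTR1;2, at -6.16 and -1.76 per the authors' deposited table. Among genes of nitrate uptake and assimilation, 8 of 25 were higher and 4 lower in the authors' deposited table, with the asparagine synthetase ASN1 at 5.07 and the nitrate reductase NIA1 at -2.58. HAK5, a high-affinity potassium carrier, stood at 5.72 per the authors' deposited table, and of 24 genes for sodium, potassium and proton transport 5 were higher and 1 lower.

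Hormone genes differed by pathway. The GH3 enzymes had 7 of 10 listed higher and 1 lower, and the Aux/IAA repressors, early targets of auxin, had 14 of 29 higher and 2 lower in the authors' deposited table, with IAA19 at 8.31. SAUR genes, also early auxin targets, had 8 of 80 higher and 10 lower in the authors' deposited table, shares of 10% and 12.5% that lie near the background. In 2A over 1A, which shares library 1A, 7 GH3 genes were higher and 1 lower, and 17 Aux/IAA genes higher and 0 lower (background 11.3% higher). In 3A over 1A, 4 GH3 genes were higher and 2 lower, and 8 Aux/IAA genes higher and 0 lower (background 8.54% higher). An auxin element (TGTCTC, either strand) was in 3 of 10 GH3 promoters and in 31% of Aux/IAA promoters, against 10.9% of all. All 3 of those GH3 genes were listed higher, as were 5 of the 9 Aux/IAA genes with the element, near the lists' own counts of 7 of 10 and 14 of 29. The element was in 10.7% of promoters of genes listed higher, 11.1% of those listed lower and 10.9% of those not listed. GH3.2, which had the largest fold change of the 3, carries the element 144 bases before its start.
GH3.2, chr4:17579368-17579617, plus strand: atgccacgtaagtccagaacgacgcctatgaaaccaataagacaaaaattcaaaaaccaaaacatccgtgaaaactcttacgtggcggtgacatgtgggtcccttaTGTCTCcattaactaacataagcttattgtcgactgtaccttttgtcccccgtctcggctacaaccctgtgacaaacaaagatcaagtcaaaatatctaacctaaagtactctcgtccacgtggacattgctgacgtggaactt

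The jasmonate list had 15 of 29 genes lower and 3 higher per the authors' deposited table. Those lower included the synthesis genes AOC1 at -4.93, LOX3 at -3.48 and OPR3 at -2.07 and the repressor gene JAZ7 at -3.23. The list took in lipoxygenases by name, whatever their part in jasmonate synthesis. LOX1, at 5.59, is counted among the 3 higher on that ground only. Of 27 genes of cytokinin synthesis and breakdown, 5 were higher (18.5%) and 4 lower (14.8%) in the authors' deposited table, close to the background, with IPT3 at -7.28 and CYP735A2, which makes trans-zeatin forms, at -5.65 and the activating enzyme LOG4 at 2.61 per the authors' deposited table. Glutathione transferases, which attach glutathione to toxins and stress products, had 14 of 49 lower and 5 higher in the authors' deposited table, with GSTU20 at -6.88 and GSTU14 at 6.13. Glucosinolate synthesis had 13 of 26 lower and 1 higher, with CYP83A1 at -8.69 per the authors' deposited table, a gene at -2.12 in 2A over 1A and 2.76 in 3A over 1A.

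Clock and light genes were listed in part. Of 19 clock genes 8 were higher and 2 lower in the authors' deposited table, with the blue-light receptor FKF1 at 3.12, PRR5 at 2.92 and ELF4 at 2.84, and CHE at -2.50; the sources used here give no hour of sampling. Of 27 light signalling genes 3 were higher and 6 lower in the authors' deposited table. The light-responsive growth factors PIF4 and PIF5 stood at -6.33 and -4.47 per the authors' deposited table, and HFR1, which blocks them, at 5.56. Among transcription factor families the largest had calls in both directions in the authors' deposited table, with 25 higher and 14 lower of 101 NAC genes and 20 higher and 28 lower of 129 R2R3 MYB genes. Of the ERF and DREB factors, 15 of 69 were higher and 10 lower in the authors' deposited table. The 7 listed cytokinin response factors were all higher, from CRF2 at 5.46 to CRF10 at 1.05 per the authors' deposited table. That subset was picked after its values had been seen. Its members that were not listed were not counted. No share is therefore set beside the background, and these calls do not describe the family as a whole. Small nuclear and nucleolar RNAs act in splicing and in ribosome assembly. Of 65 such genes the authors' deposited table listed 10 lower (15.4%) and 0 higher, and 55 were not listed. That share lower is near the 13.1% of protein-coding genes listed lower. Those listed were U2 and U3 RNAs, with U3D at -5.53 and U2.5 at -4.03 per the authors' deposited table. These RNAs mostly lack a poly-A tail, and the part of the poly-A selection in this difference was not tested.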

How the data were processed

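Poly-A RNA of each group's pooled sample was sequenced on the BGISEQ-500 platform, per the labels' protocols. Bowtie, Bowtie2 2.2.5, Cufflinks, HISAT and StringTie 1.0.4 are the tools and TAIR10 the build in the submitters' processing notes, which give them no roles. The log2 fold changes, p-values and FDR values were computed and deposited by the authors, per the file headers, and the sources used here do not give the test behind them. The per-library columns, 10 in the tables read, match no sample label and were not used, so no levels or depths are given and no interval for counting error could be formed. Genes were therefore described by the authors' fold change, and in place of a mark for the smallest level, folds within 1e-09 (relative) of a whole number were marked. No test was run on 1 library a side.

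Genes were matched to the RefSeq TAIR10.1 table: 7458 of 7531 identifiers matched, and the other 73 were not in it. Members were counted for 73 lists. In the lists and marker sets, 30 names found no unique gene, and names that had matched another gene were corrected by product name, whatever their values. Some genes that the lists had not named at first were also added by locus, GDCH to photorespiration and others to the defence list. The members and lists were chosen with earlier results of these data known, and 6 lists were made or widened by product name after values were seen. Named genes were the 4 members of a list with the largest fold that is not whole and the 10 at each end; further members, named to fill in a pathway or its roles, were chosen after their values were seen. Promoters were the 250 bases before the RefSeq gene start. The whole-number rule and the motif search were checked on simulated data. Alternatives were fold and FDR limits and leaving out whole-number folds or unmatched rows. Python 3.11.15, pandas 2.3.3, NumPy 2.4.6 and Matplotlib 3.10.9 were used.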

Additional observations from a re-analysis of the deposited data

How the results depend on the processing

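Of the 3741 genes listed higher and 3790 listed lower in 4A, 1591 and 2224 remained at a log2 fold change over 2 in size and 959 and 1501 over 3, so the near balance of directions did not hold at larger folds. With an FDR under 1e-10, without whole-number folds or without rows missing from the reference, both counts stayed within 1.5 times the full ones. Of 72 lists with a listed member, the excess of higher or lower members kept its direction in 57 at over 4-fold, was 0 before or after that change in 9, and turned in 6: higher minus lower became 3 for carotenoid genes, 2 for SAUR genes, -1 for cytokinin genes, 1 for extensins, 1 for cyclins and their kinases and -3 for ribosomal proteins. At that limit 1 more replication gene was higher than lower, and the mitosis list stood at -2, since most of their folds were under 4. Without whole-number folds, the median turned to -0.40 for cytokinin genes, 1.20 for shoot meristem genes and 0.02 for phosphate starvation genes. The causes of these turns were not tested. No paired analysis was possible because each group had 1 sample and no result comes from a test of replicates. The depth of the libraries is unknown, which limits what can be said of any gene that is not listed.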
